A study of Mus musculus with 4 samples.

Results

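The genes of oxidative phosphorylation were followed in 4 myeloid populations isolated by sorting from EO771 tumours (EO771 is a mammary carcinoma line of the mouse). The members are the 101 genes, of 13976 in the deposited table, whose symbol begins as those of the subunits of complexes I to V do. Of these, 13 are encoded in mitochondrial DNA and 88 in the nucleus. The nuclear members comprise 78 subunits and 10 genes of other roles, which are 8 assembly factors of complex I (Ndufaf), Atp5s and the processed pseudogene Ndufb4c. The annotation holds 10 further genes of matching name, which were not analysed here. Cyc1, the cytochrome c1 of complex III, has a symbol that the rule does not take, and its values are given among the electron carriers.

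The populations were a dendritic cell with intermediate CD103 and with CD11b (CD103int DC), the CD103+ conventional dendritic cell of type 1 (cDC1), the CD11b+ conventional dendritic cell of type 2 (cDC2) and the macrophage. All groups came from EO771 tumours in mice, and each had 1 bulk RNA library from total RNA made with a directional kit. The study's title names a treatment with heterodimeric interleukin-15, but the labels do not say which libraries came from treated mice, nor the strain, age, number of mice or sort gates. No difference below could be set against replicate error, and no test was possible.

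Levels are in CPM, reads per 1000000, on library sizes that the authors scaled. The libraries held 55960049 (CD103int DC), 44425908 (cDC1), 44940500 (cDC2) and 63817502 (macrophage) estimated reads, and 95% intervals given with folds cover counting error only. The column totals ranged from 905670 (cDC1) to 1169346 (macrophage), and gene models that collect ribosomal RNA reads took 7.08% of the CD103int DC, 12.5% of the cDC1, 5.94% of the cDC2 and 11.3% of the macrophage column. The 9 cDC1 marker genes summed to 755, 2949, 638 and 852 CPM in the same order, so that the cDC1 library stood apart. The 12 macrophage markers summed to 2815, 800, 4664 and 4450 CPM, which was highest in the library labelled cDC2. No marker of these 2 lists was at 0 in any library, and 6 T cell markers together reached at most 15.3 CPM. The 8 cDC2 markers summed to 2556 CPM in CD103int DC, 1471 CPM in cDC1, 2194 CPM in cDC2 and 2463 CPM in macrophages, with Clec4a4 at 0 in cDC1 and at most 1.17 CPM elsewhere. Their medians were 75.2, 171, 41.1 and 63.3 CPM, highest in the cDC1 library. The 6 markers of conventional dendritic cells in general summed to 1506, 1970, 1618 and 717 CPM. Their medians were 43.1, 267, 31.0 and 42.2 CPM, so that CD103int DC and cDC2 were not clearly above macrophages by the median. The 5 measured of 6 plasmacytoid DC markers came to 133, 713, 172 and 261 CPM, highest in the cDC1 library. The 3 measured of 6 epithelial markers came to 199.8, 425, 120.1 and 89.9 CPM, nearly all of it Cdh1 (194.5, 416, 117.6 and 87.9 CPM). The 2 measured of 5 neutrophil markers came to 35.4, 9.99, 63.9 and 158 CPM. The macrophage column also carried another name prefix than the 3 dendritic columns, whose meaning is not given in the sources used here, so that whatever the prefix marks cannot be told apart from the population. The part of other cell types and of ribosomal RNA in the differences below was not tested, and in bulk samples fewer cells of a type and less RNA per cell cannot be told apart.

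Oxidative phosphorylation passes electrons from NADH (complex I) and succinate (complex II) through complex III to oxygen at complex IV, and the protons pumped on the way drive ATP synthase (complex V). Complexes I, III, IV and V are built from the products of both genomes. The pumping membrane core of I, the cytochrome b of III and the catalytic core of IV are encoded in mitochondrial DNA. Other core subunits and many small supernumerary subunits are encoded in the nucleus. Complex II is nuclear throughout. In dendritic cells and macrophages the balance of respiration and glycolysis is known to shift with activation.

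Mitochondrial genes lie end to end, and some share bases, so that reads of one transcript can be split between gene names. The pairs mt-Atp8 with mt-Atp6 and mt-Nd4l with mt-Nd4 overlap in sequence, by 43 and 7 bases. The ends of the shorter genes are shown from GRCm38, plus strand, at chrM:7887-7969 and chrM:10127-10173, with the bases shared with the longer gene in capitals.
mt-Atp8: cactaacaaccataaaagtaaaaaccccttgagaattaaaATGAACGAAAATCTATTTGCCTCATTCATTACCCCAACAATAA
mt-Nd4l: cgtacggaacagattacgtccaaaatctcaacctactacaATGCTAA

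A block of chromosome 1 holds nuclear copies of mitochondrial genes on the minus strand. The first 60 bases of mt-Nd3 (chrM:9459-9518) and the matching stretch of the copy Gm28438 (chr1:24613060-24613119, minus strand) are shown with the differing base in capitals. It is the only difference in 345 aligned bases, T3C, with positions counted from 1 at the first base of mt-Nd3.
mt-Nd3: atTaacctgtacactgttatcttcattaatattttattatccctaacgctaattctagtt
Gm28438: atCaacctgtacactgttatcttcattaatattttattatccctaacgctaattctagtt
Gm28661, a copy of mt-Co2, had no difference from it over 681 aligned bases, so that a read within them fits both places. The first 60 bases of mt-Co2 (chrM:7013-7072) are given as an example.
mt-Co2: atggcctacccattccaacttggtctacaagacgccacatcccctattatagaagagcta

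The 13 mitochondrially encoded genes together held 11791 CPM in CD103int DC, 14275 CPM in cDC1, 13707 CPM in cDC2 and 9827 CPM in macrophages. These were 1.21%, 1.58%, 1.41% and 0.840% of the column totals. The 78 nuclear subunits summed to 6959 CPM in CD103int DC, 5634 CPM in cDC1, 6535 CPM in cDC2 and 4912 CPM in macrophages. The sums of the 2 genomes therefore had different orders: the mitochondrial sum was highest in cDC1 and the nuclear sum in CD103int DC, while macrophages were lowest in both. Within a library the ratio of the mitochondrial to the nuclear sum does not depend on how columns are scaled. It was 1.69 in CD103int DC, 2.53 in cDC1, 2.10 in cDC2 and 2.0 in macrophages. Adding the nuclear copies of mitochondrial genes to the mitochondrial sum gave 2.10, 3.11, 2.61 and 2.52. Leaving out mt-Co1 gave 0.715, 0.918, 0.795 and 0.906. CD103int DC had the lowest ratio and cDC1 the highest in each of these 3 forms.

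**Figure D1:**
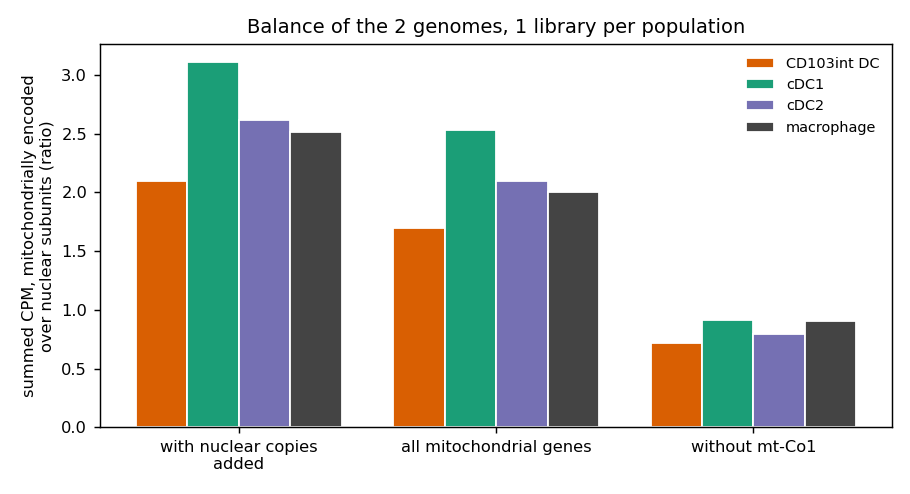
Ratio of the summed CPM of the mitochondrially encoded genes to that of the 78 nuclear subunits in each library, as 3 sets of bars: with nuclear copies added, for all 13 genes and without mt-Co1. Each bar is 1 library, without error, and the CD103int DC bar is the lowest of each set (1.69 for all 13 genes).

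The catalytic subunit of complex IV, mt-Co1 (chrM:5328-6872), was the most abundant member. It had 6817 CPM in CD103int DC, 9106 CPM in cDC1, 8511 CPM in cDC2 and 5378 CPM in macrophages, or 57.8%, 63.8%, 62.1% and 54.7% of the mitochondrial sum. It was 1.69-fold higher in cDC1 than in macrophages (interval 1.69 to 1.70) and 1.58-fold higher in cDC2 than in macrophages (1.57 to 1.59). Without mt-Co1 the mitochondrial sums lay closer, at 4974 CPM in CD103int DC, 5170 CPM in cDC1, 5197 CPM in cDC2 and 4449 CPM in macrophages.

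The ND subunits mt-Nd1, mt-Nd2, mt-Nd4 and mt-Nd5, which form the proton-pumping membrane arm of complex I, differed little. mt-Nd1 had 519, 498, 550 and 525 CPM in CD103int DC, cDC1, cDC2 and macrophages. mt-Nd5 had 351 CPM in CD103int DC, 426 CPM in cDC1, 416 CPM in cDC2 and 341 CPM in macrophages. None of these 4 genes was 1.5-fold apart in any of the 6 pairs of libraries, and the same held for mt-Cytb, the cytochrome b of complex III (577, 649, 638 and 525 CPM), for mt-Co3 (1018, 1008, 977 and 874 CPM) and for mt-Atp6 (1547, 1614, 1538 and 1349 CPM).

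mt-Nd3 (chrM:9459-9806), whose first bases are shown above, was the exception among the ND genes. It had 70.7 CPM in CD103int DC, 28.4 CPM in cDC1, 58.9 CPM in cDC2 and 52.7 CPM in macrophages. The cDC1 library was the low one: CD103int DC stood 2.48-fold above it (2.34 to 2.64), and cDC1 was at 0.483 of the cDC2 level (0.453 to 0.516) and 0.540 of the macrophage level (0.506 to 0.576). Its copy Gm28438 had at most 1.39 CPM in any library, and adding it left the difference of CD103int DC against cDC1 at 1.29 on the log2 scale. With 348 bases mt-Nd3 is one of the shortest mitochondrial messages. Short nuclear subunits were also low in cDC1 against CD103int DC and cDC2, as described below.

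mt-Co2, the subunit that takes electrons from cytochrome c, had 316 CPM in CD103int DC, 324 CPM in cDC1, 364 CPM in cDC2 and 208 CPM in macrophages, and was 1.52-fold higher in CD103int DC than in macrophages (1.48 to 1.55). Its copy Gm28661 was listed at 1436, 1646, 1638 and 1224 CPM, several times the level of mt-Co2 itself. Summed, they came to 1752 CPM in CD103int DC, 1970 CPM in cDC1, 2002 CPM in cDC2 and 1433 CPM in macrophages, and the difference of CD103int DC against macrophages was 0.29 on the log2 scale for the sum, within 1.5-fold, against 0.60 for mt-Co2 alone. Copies of mt-Co3 (Gm28437, 1094, 1019, 1280 and 973 CPM) and of mt-Atp6 (Gm10925, 211, 562, 406 and 287 CPM) also took reads of identical sequence, so levels of these 3 genes by themselves are uncertain.

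The remaining mitochondrial genes were scarce as listed. mt-Nd4l had 8.22, 9.26, 10.3 and 8.98 CPM, and held 2.13%, 2.18%, 2.37% and 2.58% of its sum with mt-Nd4 in CD103int DC, cDC1, cDC2 and macrophages. mt-Atp8 had 3.10, 3.91, 4.48 and 3.68 CPM, 0.200% to 0.291% of its sum with mt-Atp6. Each pair is known to be carried on 1 transcript with the overlaps printed above, so these levels describe where reads were assigned. mt-Nd6, the one subunit on the other strand of mitochondrial DNA, had 4.09, 5.24, 7.07 and 3.44 CPM.

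**Figure D2:**
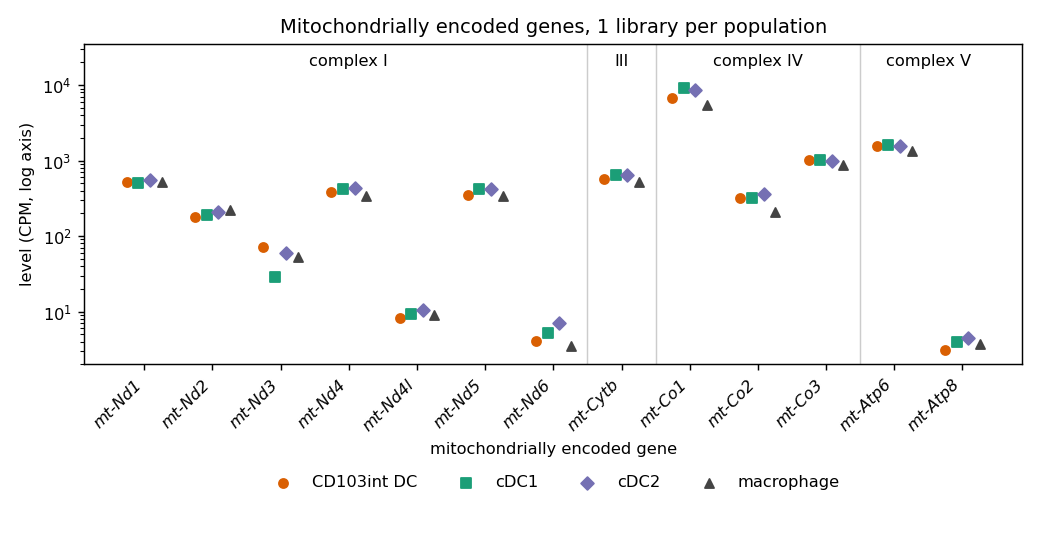
Level in CPM, on a log axis, of each of the 13 mitochondrially encoded genes by complex, with 1 point for each library and no error. The 4 points of a gene lie close together except for mt-Nd3, whose cDC1 point (28.4 CPM) lies below the others, and mt-Nd6 and mt-Co2, whose macrophage points are the lowest.

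Pairs of libraries were compared by the difference of log2(CPM + 1), and a gene was counted as higher or lower when it was at least 1.5-fold apart on that scale with at least 10 CPM in the higher library. Over the mitochondrial genes the median difference was -0.06 for CD103int DC against cDC1, -0.17 against cDC2 and 0.18 against macrophages. The median was 0.28 for cDC1 against macrophages, 0.19 for cDC2 against macrophages and -0.04 for cDC1 against cDC2, where the sign turned under other scalings (0.059 at equal column totals). The other mitochondrial medians depended on the scaling in size. At equal column totals they were -0.17 for CD103int DC against cDC1, -0.18 against cDC2 and 0.44 against macrophages, 0.63 for cDC1 against macrophages and 0.46 for cDC2 against macrophages, and against cDC1 the CD103int DC value was -0.25 at equal nuclear protein-coding totals.

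The nuclear subunits showed a wider and more uniform spread between populations. The highest of the 4 libraries was CD103int DC for 60 of the 78, cDC1 for 9, cDC2 for 8 and macrophage for 1. The lowest was macrophage for 49, cDC1 for 28, cDC2 for 1 and CD103int DC for none. At equal column totals CD103int DC was highest for 54 and macrophage lowest for 74, with cDC1 lowest for 4, so the place of cDC1 above or level with macrophages depends on the scaling. CD103int DC exceeded macrophages in 77 of the 78 subunits, cDC1 in 69 and cDC2 in 68.

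By the median, nuclear subunits were 0.37 higher in CD103int DC than in cDC1 on the log2 scale, 0.06 higher than in cDC2 and 0.53 higher than in macrophages. The median over all genes of sufficient level was 0.03, 0.02 and -0.07 in these pairs. Relative to it the subunits lay at 0.34, 0.05 and 0.60 as deposited, at 0.34, 0.05 and 0.59 at equal column totals and at the same 3 values at equal nuclear protein-coding totals. Of the 78 subunits, 76 reached 10 CPM in each of these pairs. Against cDC1, 23 (30.3%) were at least 1.5-fold higher in CD103int DC and 0 lower, where over all genes 17.2% were higher and 12.1% lower. Against cDC2, 0 were higher and 0 lower, against 4.22% and 2.99% of all genes. Against macrophages, 25 (32.9%) were higher and 0 lower, against 12.2% and 19.0% of all genes. These counts moved with the scaling. Over all nuclear members, 24 were higher against cDC1 as deposited, 14 (17.9%) at equal column totals, where 14.3% of all genes were higher, and 8 (10.3%) at equal nuclear protein-coding totals, against 12.5% of all genes. Against cDC1 the share was thus near or below that of all genes under both other scalings. Against macrophages, 26 nuclear members were higher as deposited, 64 (82.1%) at equal column totals, against 23.6% of all genes, and 56 (70.9%) at nuclear totals, against 19.9%. At 2-fold, 3 nuclear members were higher and 0 lower against cDC1 (all genes 9.16% and 5.46%), 0 and 0 against cDC2 (1.56% and 0.665%), and 1 and 0 against macrophages (4.35% and 8.31%), so few members reached that size.

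In the other pairs, cDC1 against cDC2 had a median of -0.33, with 0 nuclear subunits higher and 12 (15.8%) lower, a share near that of all genes (14.9% higher and 17.7% lower). The cDC1 against macrophage median was 0.11, with 5 (6.76%) higher and 1 lower, against 18.3% and 26.5% of all genes. The subunit median of that pair moved most with the scaling. At equal column totals it was 0.47 and 30 of 75 nuclear members were higher, against 33.2% of all genes. At nuclear totals the values were 0.49 and 33 of 77 (42.9%), against 34.2%. The median of all genes in that pair moved too, from -0.09 as deposited to 0.29 and 0.31. For cDC2 against macrophages the subunit median was 0.39, with 17 (22.4%) higher and 0 lower (all genes 7.42% and 16.9%). At 2-fold, 0 nuclear members were higher and 1 lower in cDC1 against cDC2 (all genes 7.27% and 9.56%), 0 and 1 in cDC1 against macrophages (9.21% and 15.8%), and 1 and 0 in cDC2 against macrophages (1.78% and 6.01%). The pairs share libraries, so these counts are not separate pieces of evidence. In all, CD103int DC and cDC2 both exceeded cDC1 and macrophages in 62 of the 78 subunits.

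**Figure D3:**
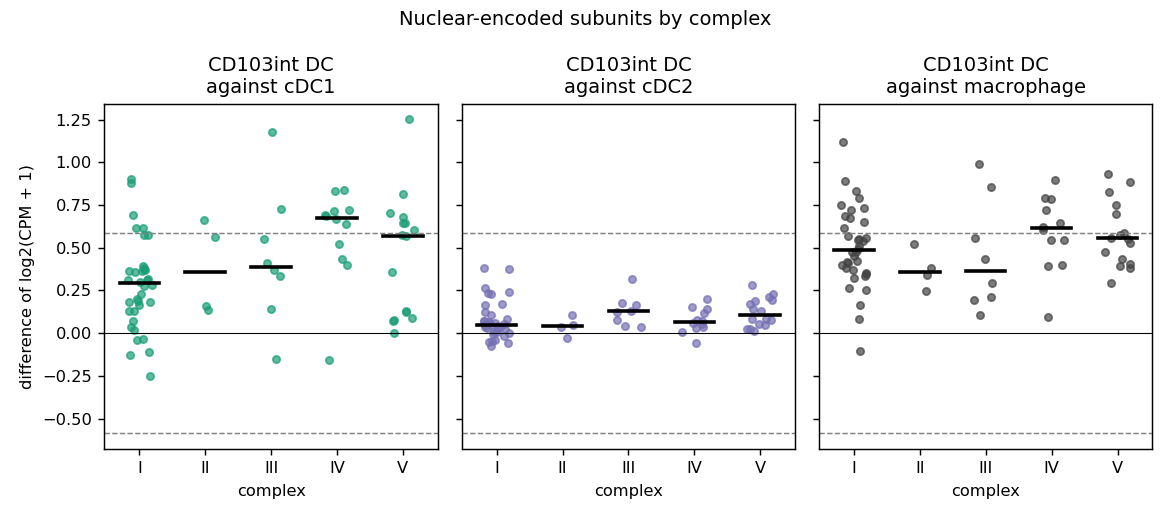
Difference of log2(CPM + 1) for each nuclear subunit with at least 10 CPM in the higher library, by complex, for CD103int DC against cDC1, cDC2 and macrophages. Points are genes, black bars are medians and dashed lines mark 1.5-fold. Points against cDC2 stay within the dashed lines, and complex IV has the highest median against cDC1 (0.68) and macrophages (0.61).

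In complex I, 36 nuclear subunits had a median difference of 0.29 against cDC1, 0.05 against cDC2 and 0.49 against macrophages for CD103int DC. The 7 core subunits, which carry flavin and iron-sulphur clusters, were less apart (0.16, 0.04 and 0.34) than the 29 supernumerary subunits (0.30, 0.06 and 0.54). None of the core subunits passed 1.5-fold in any pair. Transcript length was not separated from this contrast. Ndufs1, the largest core subunit, had 48.4 CPM in CD103int DC, 57.7 CPM in cDC1, 44.8 CPM in cDC2 and 45.6 CPM in macrophages. Against cDC1, 5 of 36 subunits (13.9%) were counted, a share below the 17.2% of all genes. They were Ndufb6, Ndufs6, Ndufa1, Ndufb2 and Ndufb5. Ndufb6, of the membrane arm, had 43.3 CPM in CD103int DC, 22.7 CPM in cDC1, 43.5 CPM in cDC2 and 30.9 CPM in macrophages. CD103int DC and cDC2 were level there, and CD103int DC was 1.90-fold above cDC1 (1.77 to 2.05).

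Against macrophages, 11 of 36 complex I subunits (30.6%) were counted, beside 12.2% of all genes. They were Ndufa12, Ndufc1, Ndufab1, Ndufa5, Ndufv3, Ndufa6, Ndufa9, Ndufa8, Ndufa10, Ndufs5 and Ndufs6. Ndufa12 (chr10:94198720-94221443) had 41.1 CPM in CD103int DC, 31.7 CPM in cDC1, 40.2 CPM in cDC2 and 18.3 CPM in macrophages. It was 2.24-fold higher in CD103int DC (2.08 to 2.41) and 2.19-fold higher in cDC2 (2.03 to 2.37) than in macrophages. Ndufa9, which binds at the junction of the membrane and matrix arms, had 98.1, 107, 96.5 and 59.2 CPM, so that all 3 populations labelled as dendritic lay above macrophages. Ndufab1, the mitochondrial acyl carrier protein, had 24.9, 21.7, 23.96 and 13.6 CPM in the same order. Ndufs4 went the other way, with 39.8 CPM in CD103int DC, 36.2 CPM in cDC1, 37.5 CPM in cDC2 and 42.9 CPM in macrophages, but stayed within 1.5-fold. Per kb of main transcript, Ndufb8 had the highest mean level of the complex (108 CPM per kb).

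Complex II, which also serves the citric acid cycle, had 4 subunits with medians of 0.36, 0.04 and 0.36 for CD103int DC against cDC1, cDC2 and macrophages. Sdha, the flavoprotein, had 179 CPM in CD103int DC, 161 CPM in cDC1, 175 CPM in cDC2 and 141 CPM in macrophages. The membrane anchor Sdhd had 110, 69.1, 102 and 76.0 CPM, and was 1.59-fold higher in CD103int DC than in cDC1 (1.52 to 1.66). It was the only subunit of this complex counted in any pair.

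The 8 nuclear subunits of complex III had medians of 0.39, 0.13 and 0.36 against cDC1, cDC2 and macrophages. The core proteins Uqcrc1 and Uqcrc2 stayed within 1.5-fold in every pair, while small subunits were counted. Uqcrh (chr4:116066965-116075071), the hinge protein near cytochrome c1, had 67.3 CPM in CD103int DC, 29.2 CPM in cDC1, 53.8 CPM in cDC2 and 62.5 CPM in macrophages. The cDC1 library alone was low: CD103int DC was 2.30-fold above it (2.17 to 2.45), and cDC1 was at 0.468 of the macrophage level (0.439 to 0.497). Uqcr11 had another order, with 40.6, 31.1, 37.1 and 19.9 CPM and macrophages lowest, 2.04-fold below CD103int DC (1.89 to 2.19). Uqcr10 was counted in CD103int DC against both cDC1 and macrophages, with 44.4, 26.5, 39.5 and 24.1 CPM.

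Complex IV had the highest medians of the complexes against cDC1 and macrophages. Its 14 nuclear members, 12 of which reached 10 CPM, had medians of 0.68, 0.07 and 0.61 for CD103int DC against cDC1, cDC2 and macrophages, with 8, 0 and 7 of those 12 counted as higher (66.7% against cDC1 and 58.3% against macrophages, where 17.2%, 4.22% and 12.2% of all genes were higher in the 3 pairs). They made up 20.9% of the nuclear subunit sum in CD103int DC, 16.7% in cDC1, 21.2% in cDC2 and 19.8% in macrophages. No scaling changes this share, but transcript length was not separated from it. Cox4i1, the ubiquitous form of subunit 4, had the highest nuclear level of the complex per kb (415, 257, 398 and 314 CPM per kb), or 309 CPM in CD103int DC, 192 CPM in cDC1, 296 CPM in cDC2 and 234 CPM in macrophages. It was 1.61-fold higher in CD103int DC than in cDC1 (1.57 to 1.65). The gene model Gm20388, at 9.48 to 20.8 CPM, shares its strand and 5986 bases of its span, and reads of either could have been assigned to the other.

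Cox7c (chr13:86044816-86046904), a small membrane subunit, had 116 CPM in CD103int DC, 64.3 CPM in cDC1, 115 CPM in cDC2 and 69.9 CPM in macrophages. CD103int DC and cDC2 were level, and CD103int DC was 1.80-fold above cDC1 (1.72 to 1.88). Cox8a had 128, 71.6, 118 and 87.3 CPM in the same order of libraries. Cox5a, which binds the matrix side, had 122, 75.0, 116 and 70.0 CPM. Cox7b was lowest in macrophages, with 94.6, 65.4, 82.3 and 50.3 CPM. Ndufa4, named for complex I but known as a complex IV subunit, had 32.9, 36.8, 34.3 and 30.7 CPM and did not share the pattern.

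Several subunits of complex IV exist as tissue isoforms. The forms found in most tissues were present throughout: Cox6a1 (104, 65.2, 102 and 79.0 CPM), Cox6b1 (136, 103, 131 and 88.2 CPM), Cox7a2 (69.4, 41.9, 62.8 and 45.3 CPM) and Cox8a. Cox7a2l, a factor in the joining of complexes III and IV, had 166 CPM in CD103int DC, 100.4 CPM in cDC1, 157 CPM in cDC2 and 106 CPM in macrophages. The muscle form Cox7a1 did not exceed 1.23 CPM, and the testis form Cox6b2 did not exceed 2.06 CPM in any library.

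The 16 nuclear subunits of complex V had medians of 0.57, 0.11 and 0.55 against cDC1, cDC2 and macrophages, with 7, 0 and 5 of 16 counted as higher (43.8% against cDC1 and 31.3% against macrophages, beside the same shares of all genes). The subunits are described by their place in the enzyme, which was not separated from transcript length. Main transcripts of Atp5b and Atp5a1, of the head, have 1916 and 2471 bases, and that of Atp5e, of the central stalk, 421. The catalytic head subunits were close together in the 3 populations labelled as dendritic and lower in macrophages, without reaching the size rule. Atp5b had 838 CPM in CD103int DC, 838 CPM in cDC1, 791 CPM in cDC2 and 558 CPM in macrophages, with an interval of 1.48 to 1.52 for the fold of CD103int DC over macrophages and a difference of 0.58 on the log2 scale. Atp5a1 had 593, 563, 560 and 438 CPM.

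The c ring, which turns as protons pass, is encoded by Atp5g1, Atp5g2 and Atp5g3 for the same mature protein. Together these genes had 212 CPM in CD103int DC, 135 CPM in cDC1, 185 CPM in cDC2 and 122 CPM in macrophages, and all 3 were counted in CD103int DC against macrophages. Atp5g3 supplied 63.1%, 56.1%, 59.6% and 64.9% of the sum. Atp5g2 itself had 12.3, 7.90, 11.9 and 5.95 CPM, while the pseudogene Gm10175, identical over all 441 bases of its main transcript, was listed at 104, 84.8, 105 and 56.8 CPM. With it the ring genes came to 316 CPM in CD103int DC, 219 CPM in cDC1, 289 CPM in cDC2 and 179 CPM in macrophages, in the same order.

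The small membrane subunits had medians of 0.63, 0.20 and 0.55. Atp5k (chr5:108433244-108434448), subunit e at the dimer interface, had 25.9 CPM in CD103int DC, 10.3 CPM in cDC1, 25.5 CPM in cDC2 and 13.5 CPM in macrophages. CD103int DC was 2.51-fold above cDC1 (2.27 to 2.79) and 1.91-fold above macrophages (1.75 to 2.09), while CD103int DC and cDC2 were level. Atp5l, subunit g, had 105, 66.4, 89.2 and 85.2 CPM, with cDC1 lowest, and Atp5e, of the central stalk, had 127, 77.7, 112 and 86.2 CPM. In the peripheral stalk, Atp5j (56.1, 34.6, 54.0 and 42.2 CPM) and Atp5o (107, 68.5, 97.2 and 65.8 CPM) were counted against cDC1, and Atp5f1 and Atp5h were counted in no pair.

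Of the members with other roles, the Ndufaf assembly factors were low, between 1.54 and 14.6 CPM, and none was counted in any pair. Ndufb4c, a processed pseudogene identical over 390 bases to Ndufb4, had 11.7 CPM in CD103int DC, 4.74 CPM in cDC1, 9.27 CPM in cDC2 and 7.13 CPM in macrophages, and Ndufb4 itself 14.3, 9.24, 12.997 and 10.46 CPM. Their sum was 1.85-fold higher in CD103int DC than in cDC1, although Ndufb4 alone was within 1.5-fold. In all, 11 members stayed under 10 CPM in every library: mt-Nd6 and mt-Atp8, the subunits Cox6b2 and Cox7a1, Atp5s (0.591 to 1.17 CPM) and 6 Ndufaf genes (Ndufaf1, Ndufaf2, Ndufaf4, Ndufaf5, Ndufaf6 and Ndufaf8).

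Among the nuclear subunits, transcript length went with the differences that involve cDC1. Across 76 nuclear subunits, log2 length and the difference of CD103int DC against cDC1 had a Pearson r of -0.51 and a Spearman rho of -0.50. Against macrophages r was -0.23 and rho was -0.23. These describe genes that share the same 2 libraries and are not independent replicates. The 51 subunits with a main transcript under 1 kb had a median of 0.55 against cDC1 and 0.54 against macrophages, and the 27 longer ones 0.16 and 0.44. Nuclear protein-coding genes under 1 kb that are no members had medians of 0.28 against cDC1 and 0.32 against macrophages, and those of 2 to 4 kb 0.01 and -0.10. Of the 23 subunits counted against cDC1, 20 were under 1 kb, and of the 25 counted against macrophages, 17 were. Of all 78 subunits 51 were under 1 kb, so that the share against macrophages was near that of all subunits. In cDC1 against macrophages the longer subunits had a median of 0.29 and the shorter ones 0.02. Over all nuclear protein-coding genes the trend was stronger for CD103int DC and for cDC2 against macrophages than for CD103int DC against cDC1. In these genes rho was -0.14 for CD103int DC against cDC1 and -0.24 against macrophages. It was -0.34 for cDC2 against macrophages, 0.16 for cDC1 against cDC2 and weakest, at -0.08, for cDC1 against macrophages. Whether fragment size, RNA quality or regulation sets these length trends was not tested.

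**Figure D4:**
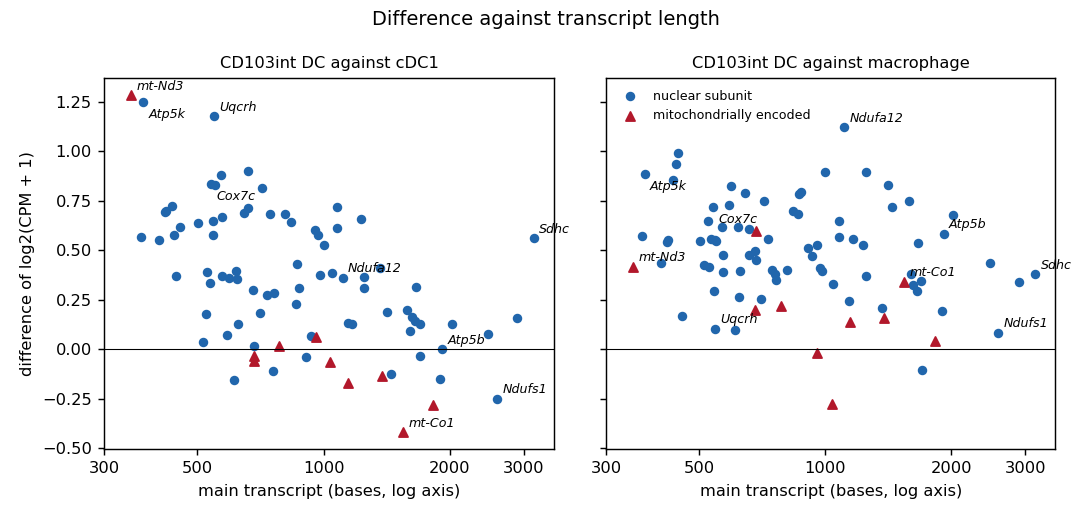
Difference of log2(CPM + 1) for CD103int DC against cDC1 (left) and macrophages (right) by length of the main transcript, on a log axis in bases. Blue points are nuclear subunits and red triangles mitochondrially encoded genes. On the left the points fall with length, from mt-Nd3 (1.28) and Atp5k (1.25) to Ndufs1 (-0.25), and on the right most points of any length lie above 0.

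Length also bears on the ratio of the genomes. The nuclear subunits under 1 kb summed to 0.924 of the longer ones in CD103int DC, 0.723 in cDC1, 0.909 in cDC2 and 0.887 in macrophages. With only the longer nuclear subunits below the line, the mitochondrial to nuclear ratio was 3.26 in CD103int DC, 4.37 in cDC1, 4.0 in cDC2 and 3.77 in macrophages. CD103int DC stayed lowest and cDC1 highest. Without mt-Co1 the same ratio was 1.38 in CD103int DC, 1.58 in cDC1, 1.52 in cDC2 and 1.71 in macrophages, so that macrophages then took the highest place. The mitochondrial genes were not limited by length in these ratios. Across the 10 mitochondrial genes of sufficient level, length and the difference of CD103int DC against cDC1 had a rho of -0.85. Length was therefore not separated from the ratio of the genomes.

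Promoters of the nuclear subunits were searched for motifs of factors known to control respiratory genes. RefSeq promoters of GRCm38.p6, from 250 bases before to 50 after the start, were matched for 66 of the 78. NRF1 (CGCATGCG) was found in 9 promoters (13.6%, against 2.07% of 27025 genes), the ETS core bound by GABP (CCGGAAG) in 16 (24.2%, against 9.93%) and YY1 (AAGATGGCG) in 7 (10.6%, against 1.64%), on either strand. The 27025 genes were not limited to the 13976 measured here and were not matched to the subunits for expression. The percentages therefore compare unlike sets of genes. An ETS match can overlap a YY1 match, since its last letters begin the other. The promoters of 3 subunits that were low in cDC1 are shown with motif matches in capitals, all on the minus strand of the genome and written in the direction of the gene: Atp5k (chr5:108434350-108434649) and Cox6a1 (chr5:115348909-115349208) with NRF1 and ETS matches, and Uqcrh (chr4:116075021-116075320) with an ETS match.
Atp5k: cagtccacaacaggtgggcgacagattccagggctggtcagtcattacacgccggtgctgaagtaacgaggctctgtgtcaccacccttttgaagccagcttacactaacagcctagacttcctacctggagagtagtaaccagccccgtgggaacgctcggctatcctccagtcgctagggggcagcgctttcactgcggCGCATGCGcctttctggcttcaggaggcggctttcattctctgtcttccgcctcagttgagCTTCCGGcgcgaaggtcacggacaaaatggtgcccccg
Cox6a1: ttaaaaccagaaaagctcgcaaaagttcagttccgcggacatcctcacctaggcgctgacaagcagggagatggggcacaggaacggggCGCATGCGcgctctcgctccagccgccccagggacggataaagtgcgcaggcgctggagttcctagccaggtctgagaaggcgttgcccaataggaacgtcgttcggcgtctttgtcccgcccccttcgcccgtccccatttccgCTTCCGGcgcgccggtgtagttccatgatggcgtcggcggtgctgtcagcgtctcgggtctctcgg
Uqcrh: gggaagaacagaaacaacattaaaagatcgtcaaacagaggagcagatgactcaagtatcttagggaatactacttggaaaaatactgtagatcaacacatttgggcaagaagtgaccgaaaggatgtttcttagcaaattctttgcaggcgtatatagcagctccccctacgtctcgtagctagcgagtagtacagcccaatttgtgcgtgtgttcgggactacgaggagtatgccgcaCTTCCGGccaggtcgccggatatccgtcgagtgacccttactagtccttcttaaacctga

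With no minimum of level, the 26 subunits with any of the 3 motifs had a median difference of 0.49 for CD103int DC against cDC1, and the 40 with none 0.31. Against macrophages the medians were 0.50 with a motif and 0.56 without. A match is a description of letters and does not show that a factor binds there. Among the factors themselves, Nrf1 had 27.0 CPM in CD103int DC, 32.0 CPM in cDC1, 27.3 CPM in cDC2 and 33.5 CPM in macrophages. Gabpa had 41.1, 46.8, 42.4 and 49.5 CPM and Yy1 81.6, 90.1, 76.7 and 103 CPM, and none of the 3 was 1.5-fold apart between CD103int DC and another library.

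Genes that surround the chain were compared by lists. The 17 measured regulators of mitochondrial genes had medians of 0.18, -0.04 and -0.30 for CD103int DC against cDC1, cDC2 and macrophages. Pparg, a nuclear receptor of lipid metabolism, had 27.3 CPM in CD103int DC, 2.94 CPM in cDC1, 39.8 CPM in cDC2 and 33.7 CPM in macrophages. Ppargc1b, a coactivator of mitochondrial biogenesis, had 17.2, 8.70, 15.5 and 9.51 CPM and Myc 43.9, 22.3, 47.7 and 24.5 CPM, and both were counted against cDC1 and against macrophages. Of the 15 that reached 10 CPM, 4 (26.7%) were higher and 0 lower against cDC1, beside 17.2% and 12.1% of all genes, and 2 (13.3%) higher and 4 (26.7%) lower against macrophages, beside 12.2% and 19.0% of all genes.

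Of the 30 measured genes of mitochondrial transcription and RNA handling, 15, 16 and 16 reached 10 CPM in the 3 pairs, with medians of 0.09, 0.00 and 0.18. Slirp, which stabilises mitochondrial messages with Lrpprc, had 32.6 CPM in CD103int DC, 15.2 CPM in cDC1, 33.0 CPM in cDC2 and 24.4 CPM in macrophages. It was the only one of 15 (6.67%) counted as higher against cDC1, with 0 lower, beside 17.2% and 12.1% of all genes. Its partner Lrpprc had 51.3, 54.8, 50.5 and 44.2 CPM. Pnpt1, a mitochondrial RNA exonuclease, was lower in CD103int DC than in macrophages (26.5 and 56.5 CPM). Against macrophages 1 of 16 genes (6.25%) was higher and 3 (18.75%) lower, beside 12.2% and 19.0% of all genes.

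The citric acid cycle list of 24 measured genes was level with all genes against cDC1 (median 0.01) and stood at 0.06 against cDC2 and 0.26 against macrophages. Fh1, fumarase, was high in cDC1, with 77.4 CPM in CD103int DC, 182 CPM in cDC1, 68.7 CPM in cDC2 and 47.1 CPM in macrophages. Suclg2 was high there too, at 10.7, 23.95, 10.8 and 10.4 CPM. Of the 22 electron carriers, 12 reached 10 CPM in each of these pairs, with medians of 0.26, 0.04 and 0.12. The best-known carriers were level: Cyc1 had 67.5, 67.2, 60.7 and 55.3 CPM and Cycs, cytochrome c, 60.5, 63.7, 61.0 and 57.5 CPM. Sqor, which feeds electrons from sulphide to quinone, had 38.1, 7.56, 33.9 and 34.8 CPM and was low in cDC1. The 37 assembly genes had medians of 0.09, -0.06 and 0.04, with 1 higher and 3 lower of 22 that reached 10 CPM against cDC1 (4.55% and 13.6%, beside 17.2% and 12.1% of all genes) and 0 higher and 1 lower of 21 against macrophages (beside 12.2% and 19.0%).

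Genes of import and of the ribosomes had medians above those of all genes against cDC1 and macrophages. The 26 import genes had medians of 0.28, 0.07 and 0.40, with 2 of 23 (8.70%) counted as higher against cDC1 and 8 of 23 (34.8%) against macrophages and none lower. Over all genes 17.2% and 12.2% were higher, so that the share against cDC1 was below that of all genes. Hspe1, the matrix chaperonin partner, had 82.2 CPM in CD103int DC, 62.5 CPM in cDC1, 71.0 CPM in cDC2 and 27.9 CPM in macrophages. The 79 mitochondrial ribosomal proteins had medians of 0.19, -0.01 and 0.33, and the 82 cytosolic ribosomal proteins 0.33, 0.07 and 0.55, with 12 of 82 cytosolic ones (14.6%) higher against cDC1 and 35 of 82 (42.7%) against macrophages. The count against cDC1 was near the share of all genes (17.2%), and that against macrophages above it (12.2%). The medians of the cytosolic ribosome lay close to those of the nuclear subunits (0.37, 0.06 and 0.53) in each of the 3 pairs.

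Glycolysis, the other source of ATP, differed from the subunits in its order as deposited, with cDC1 lowest. Its 23 measured genes had medians of 0.80, 0.17 and 0.39 for CD103int DC against cDC1, cDC2 and macrophages, with 15 of 21 (71.4%) higher and 1 (4.76%) lower against cDC1, beside 17.2% and 12.1% of all genes, and 6 of 20 higher and 3 lower against macrophages, beside 12.2% and 19.0%. The genes summed to 11579 CPM in CD103int DC, 6451 CPM in cDC1, 10462 CPM in cDC2 and 7965 CPM in macrophages. Slc16a3, a lactate exporter, had 264, 64.7, 221 and 309 CPM, and Hk3, a hexokinase, 175, 44.9, 228 and 283 CPM, both low in cDC1. Slc2a3, a glucose transporter, was high in cDC1 alone, with 7.68, 40.5, 4.83 and 9.07 CPM. Between cDC1 and macrophages the glycolysis median was -0.55 and that of the nuclear subunits 0.11 as deposited. Equal column totals raise cDC1 against macrophages by 0.37 on the log2 scale. The order of cDC1 and macrophages in the glycolysis sum therefore depends on the scaling.

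**Figure D5:**
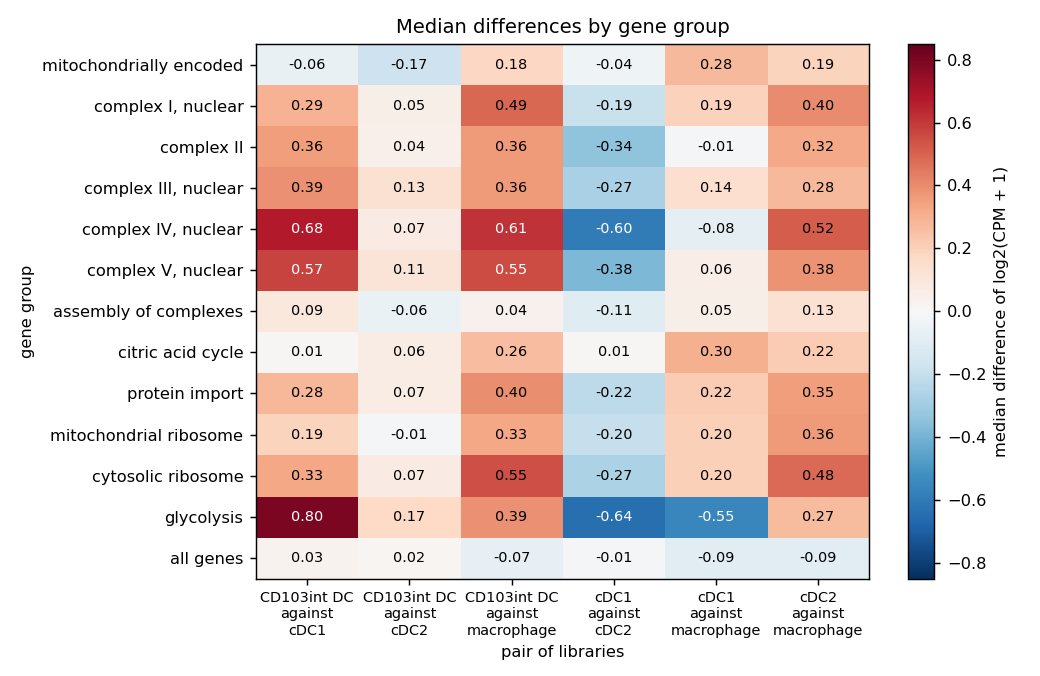
Median difference of log2(CPM + 1) for 12 gene groups and for all genes (rows) in the 6 pairs of libraries (columns), with the value in each cell, red where the first library of the pair is higher and blue where it is lower. Medians cover genes with at least 10 CPM in the higher library. Nuclear complexes and the cytosolic ribosome are red in CD103int DC against cDC1 and against macrophages, near 0 against cDC2, and the mitochondrially encoded row is not above 0 against cDC1 (-0.06).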

How the data were processed

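Values were CPM after TMM (trimmed mean of M values) scaling of library sizes, a linear signal that the authors deposited, per the name of the deposited table. The aligner, counter, strand setting and build were not given in the sources used here. Each of the 13976 identifiers matched GENCODE M21 (GRCm38), which gave coordinates and lengths (the main transcript: best APPRIS level, then CCDS, support level and shortest). Each column held multiples of 1/100 of a step, taken as 1 read, which gave the estimated reads; since fewer than 80% of values were whole, no count test was run.

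Members, lists and rules were chosen with earlier results of these data known. Differences were taken on log2(CPM + 1), which understates changes of low genes, and called at 1.5-fold with at least 10 CPM in the higher library. Ratios of CPM carry 95% binomial (Clopper-Pearson) intervals. Amplified reads are not independent molecules, so intervals cover counting error only. A near copy was a same-strand pseudogene of at least 95% identity over 30% of the member or 300 bases (BLAST+ 2.17.0). The rule for named genes took all mitochondrial genes, nuclear members past 1.5-fold in any pair, the extremes and the most abundant per kb of each complex, isoforms, members under 10 CPM, and up to 4 called genes per other list; Lrpprc, Cyc1, Cycs, Nrf1, Gabpa and Yy1, and the subunits without a call given as contrasts, were added for context. Python 3.11.15, pandas 2.3.3, NumPy 2.4.6, SciPy 1.17.1 and matplotlib 3.10.9 were used. The size rule and intervals were tested on simulated counts that held counting error only, so variation between libraries was not covered. Alternatives changed scaling, added count, minimum, fold, near copies and length class.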

Additional observations from a re-analysis of the deposited data

How the results depend on the processing

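No paired analysis was possible because each population had 1 library, and none could be left out. Pairs are given in the order CD103int DC against cDC1, cDC2 and macrophage, cDC1 against cDC2 and macrophage, and cDC2 against macrophage. Equal column totals put the median of all genes at -0.08, 0.0076, 0.20, 0.09, 0.29 and 0.18, where it was 0.03, 0.02, -0.07, -0.01, -0.09 and -0.09 as deposited. The nuclear subunit median became 0.26, 0.05, 0.78, -0.23, 0.47 and 0.66 at equal totals, and 0.19, 0.05, 0.72, -0.16, 0.49 and 0.60 at equal nuclear protein-coding totals. With only subunits of 1 kb or more it was 0.16, 0.06, 0.44, -0.13, 0.29 and 0.41, and with only shorter ones 0.55, 0.06, 0.54, -0.39, 0.024 and 0.39. Length classes and the sums below were chosen after seeing the data. The mitochondrial median became -0.17, -0.18, 0.44, 0.059, 0.63 and 0.46 at equal totals, -0.25, -0.19, 0.37, 0.13, 0.64 and 0.40 at nuclear totals, -0.14, -0.19, 0.16, -0.12, 0.26 and 0.23 with a minimum of 1 CPM or none, and -0.15, -0.17, 0.15, -0.04, 0.30 and 0.28 with copies added.

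Nuclear members counted as higher (24, 0, 26, 0, 5 and 17) became 14, 0, 64, 0, 30 and 53 at equal totals, 8, 0, 56, 1, 33 and 42 at nuclear totals, 3, 0, 1, 0, 0 and 1 at 2-fold, and 24, 0, 29, 1, 10 and 18 with a minimum of 1 CPM or none. All genes counted as higher made up 14.3%, 4.13%, 23.6%, 18.6%, 33.2% and 19.2% at equal totals, and 12.5%, 4.0%, 19.9%, 21.7%, 34.2% and 15.6% at nuclear totals. With 5 added in place of 1, the count for cDC1 against macrophages was 3. Those counted as lower in cDC1 against cDC2 (12) became 6 (all genes 15.1%) at equal totals, 5 (13.4%) at nuclear totals and 1 at 2-fold, and 1 was lower in CD103int DC against cDC1 with a minimum of 1 CPM or none. Among the medians of members, only the mitochondrial one of cDC1 against cDC2 changed sign. The median of all genes changed sign at equal totals in every pair except CD103int DC against cDC2. Depth limits little here: 10 CPM carries a counting error of 4.17% to 4.64%. The absence of replicate libraries is the limit.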

Other observations

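Mitochondrial ribosomal RNA, which the members' rule does not take, had an order of its own. The pair of ribosomal RNA genes summed to 52680 CPM in CD103int DC, 52177 CPM in cDC1, 69137 CPM in cDC2 and 59108 CPM in macrophages, or 5.41%, 5.76%, 7.14% and 5.05% of the column totals. CD103int DC and cDC2, which were level in the nuclear subunits (median difference 0.06), differed here by -0.39 on the log2 scale. How ribosomal RNA was treated in library making is not stated beyond total RNA, and its part in this difference was not tested.

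Among 18 measured genes of uncoupling, nucleotide exchange and antioxidant defence, the medians were 0.45, 0.06 and 0.39 for CD103int DC against cDC1, cDC2 and macrophages. Prdx5, a peroxiredoxin, had 194 CPM in CD103int DC, 75.5 CPM in cDC1, 238 CPM in cDC2 and 330.2 CPM in macrophages. Sod2, the mitochondrial superoxide dismutase, had 103, 40.6, 136 and 190 CPM, and the nuclear-encoded channel Vdac1 had 230, 156, 195 and 101 CPM. Prdx5 and Sod2 thus ran highest in macrophages, where the nuclear subunits were mostly lowest. Nnt, which makes NADPH from NADH at the inner membrane, was listed at 0 in CD103int DC, at 11.2 CPM in cDC1, at 0 in cDC2 and at 4.34 CPM in macrophages. No fold is given against a library listed at 0. The gene is known to be partly deleted in some mouse strains, and the labels used here do not give the strain of any library.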
